A study of Mus musculus with 6 samples.

Results

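The contractile apparatus and calcium handling of smooth muscle were followed through 35 genes, chosen by symbol from the 24062 symbols of the count table. They encode 11 proteins of the thin and thick filaments, 4 regulators of myosin phosphorylation, 11 proteins of dense bodies, intermediate filaments and adhesion, 5 proteins of calcium storage and ion channels, and 4 proteins of signalling and other roles. Of the 35, 34 passed the filter on low counts and were tested, and Casq2 did not pass.

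RNA was sequenced in bulk from plaque of the aortic arch of C57BL/6 mice prone to atherosclerosis. Both groups had the same genotype and were fed a high-fat diet during 12 weeks and a low-fat diet during the 3 weeks that followed. The ABT263 group (3 libraries) received 100 mg/kg of ABT263 (navitoclax, which inhibits BCL-xL, BCL-2 and BCL-w and serves as a drug against senescent cells) by intraperitoneal injection, 1 dose per day, in week 1 of low-fat feeding, and the vehicle group (3 libraries) is labelled as given vehicle. The labels state no age, no sex and no batch, and they do not say that each library came from a separate animal, so the p-values measure the spread between these libraries, which may be technical in part.

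Smooth muscle contracts when calcium enters through voltage-gated channels or leaves the sarcoplasmic reticulum, binds calmodulin and activates myosin light chain kinase. The phosphorylated light chain lets smooth muscle myosin pull on actin filaments that are anchored in dense bodies and at adhesion plaques, and myosin phosphatase ends the contraction. In atherosclerotic plaque, smooth muscle cells are known to lose much of this machinery as they take on other states, and the cells that keep it lie mainly in the media and the fibrous cap.

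Total counts per library ran from 62930547 to 110452098, and a gene with no count in a library could there have had up to 3 counts, or 0.0278 to 0.0480 CPM (counts per 1000000, after TMM scaling). This limit covers counting error only. Rn45s, the ribosomal RNA precursor, took 1.74% of counts in vehicle replicate 2 and between 0.304% and 0.553% in the other 5 libraries. Markers of macrophages, endothelium and smooth muscle were present in all 6 libraries. Vehicle replicate 2 and ABT263 replicate 2 stood apart from the rest in the markers of other cell types given further on.

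Almost every contractile gene was more abundant in ABT263 replicates 2 and 3 than in any vehicle library, and ABT263 replicate 1 stood at the vehicle level. The summed level of the 35 genes was 7583, 6756 and 9243 CPM in vehicle replicates 1 to 3 and 6739, 29938 and 20289 CPM in ABT263 replicates 1 to 3. The same genes took 0.705%, 0.659% and 0.928% of all counts with vehicle and 0.711%, 3.21% and 1.97% with ABT263. The groups overlapped, and the lowest of the 6 sums belonged to ABT263 replicate 1. In bulk tissue, more cells of a type and more RNA per cell cannot be told apart, and this holds for every value given here.

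**Figure D1:**
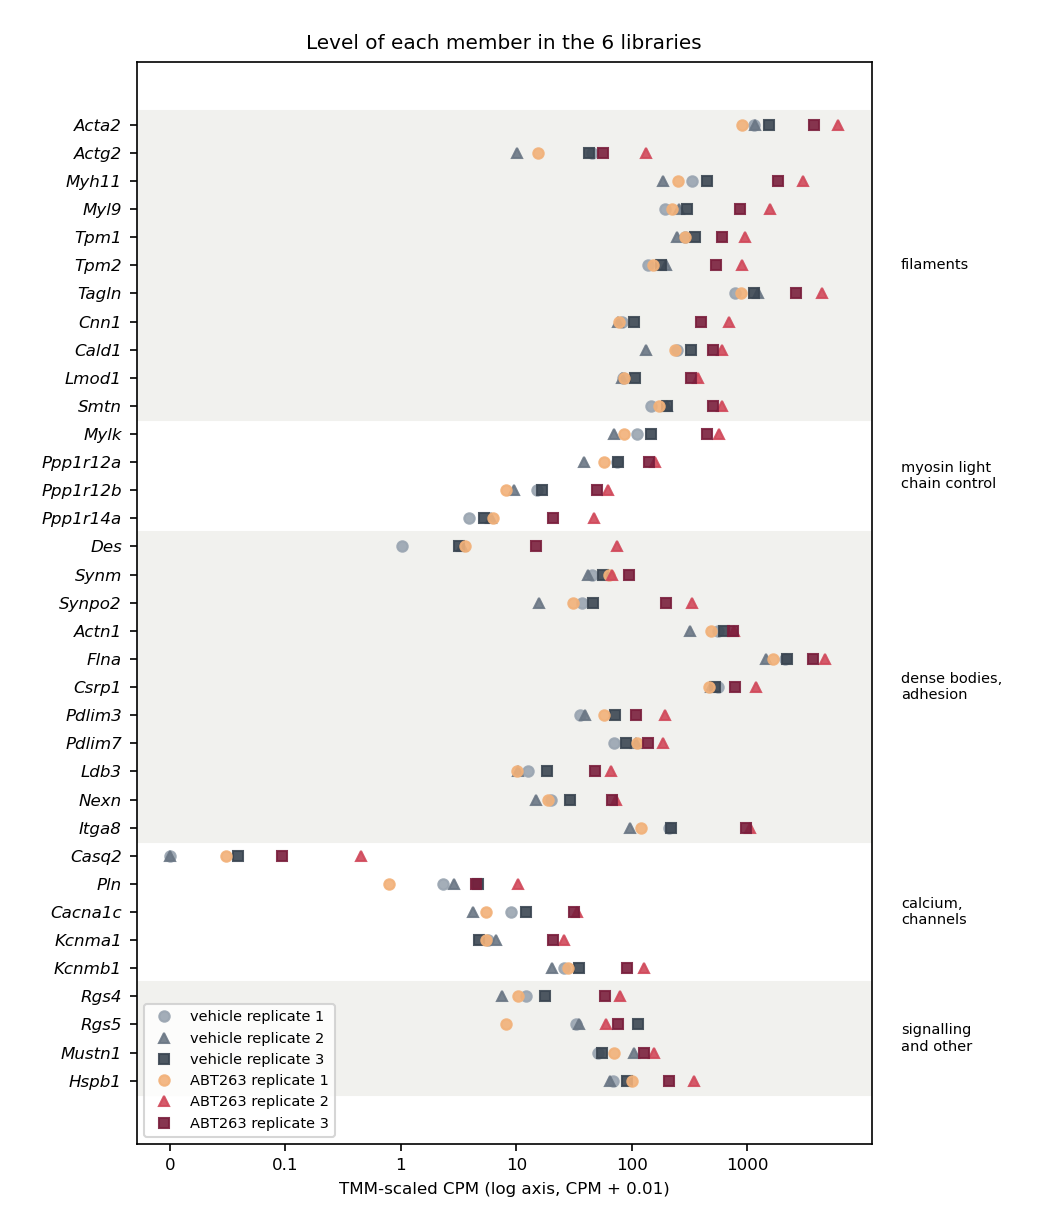
Level of each of the 35 genes (vertical axis, grouped by role) as TMM-scaled CPM on a log axis, 1 point per library, with vehicle in grey and ABT263 in orange and red. ABT263 replicates 2 and 3 lie to the right of all vehicle points for most genes, as for Myh11 (3052 and 1848 CPM against at most 451), while ABT263 replicate 1 lies among them.

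Over the 34 genes tested, the level in ABT263 replicate 2 was a median of 4.20 times the vehicle mean, from 0.987 times for Rgs5 to 29.7 times for Des. In ABT263 replicate 3 the median was 3.06 times, from 1.26 times for Rgs5 to 5.99 times for Synpo2. The median in ABT263 replicate 1 was 0.897 times, from 0.134 times for Rgs5 to 1.42 times for Des. Replicates 2 and 3 were thus both high, and replicate 2 was the higher of them for 32 of 34 genes, by a median of 1.37 times. ABT263 replicate 2 exceeded every vehicle library in 33 of 34 genes, where 31.5% of all genes tested did so, and ABT263 replicate 3 in 32 of 34, against 24.7%. For ABT263 replicate 1 this held for 5 of 34 genes (14.7%), near the 18.4% of all genes. The pattern of replicates 2 and 3 above every vehicle library with replicate 1 not above was seen in 27 of 34 genes and in 11.3% of all genes tested.

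No gene of the set passed the threshold of 0.05 by the quasi-likelihood test of edgeR with Benjamini-Hochberg adjustment, and neither did any other gene (0% of 15222 called), the smallest adjusted p being 0.592. By limma-voom 0% were called as well, with 855 genes at an unadjusted p under 0.05. DESeq2 called 2 of the 34, Des (adjusted p = 0.0195) and Ppp1r14a (adjusted p = 0.049994), against 1.01% of all genes. At an unadjusted p under 0.05 edgeR gave 20 of 34 genes, all 20 with a positive fold change, where 8.38% of all genes tested passed and 4.70% passed with a positive fold change. DESeq2 gave 25 of 34 at that unadjusted p, where 11.3% of all genes passed, and limma-voom 9 of 34, where 5.62% passed. Leaving out vehicle replicate 1, 2 or 3 gave 3, 5 or 12 of 34 genes, where 5.15%, 7.20% or 6.44% of all genes then passed. Leaving out ABT263 replicate 1, 2 or 3 gave 30, 4 or 5 of 34 genes, where 12.0%, 4.23% or 6.17% of all genes passed. The log2 fold change (ABT263 over vehicle) was positive for 33 of 34 genes, against 50.1% of all genes, and above 1 for 24 of 34, against 7.68%. Its median over the 34 was 1.49, beside 0.00080 over all genes tested. With replicate 2 of both groups left out the median was 0.88, 31 of 34 genes were positive and 3 had an unadjusted p under 0.05, near the share of all genes that passed, 7.11%.

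**Figure D2:**
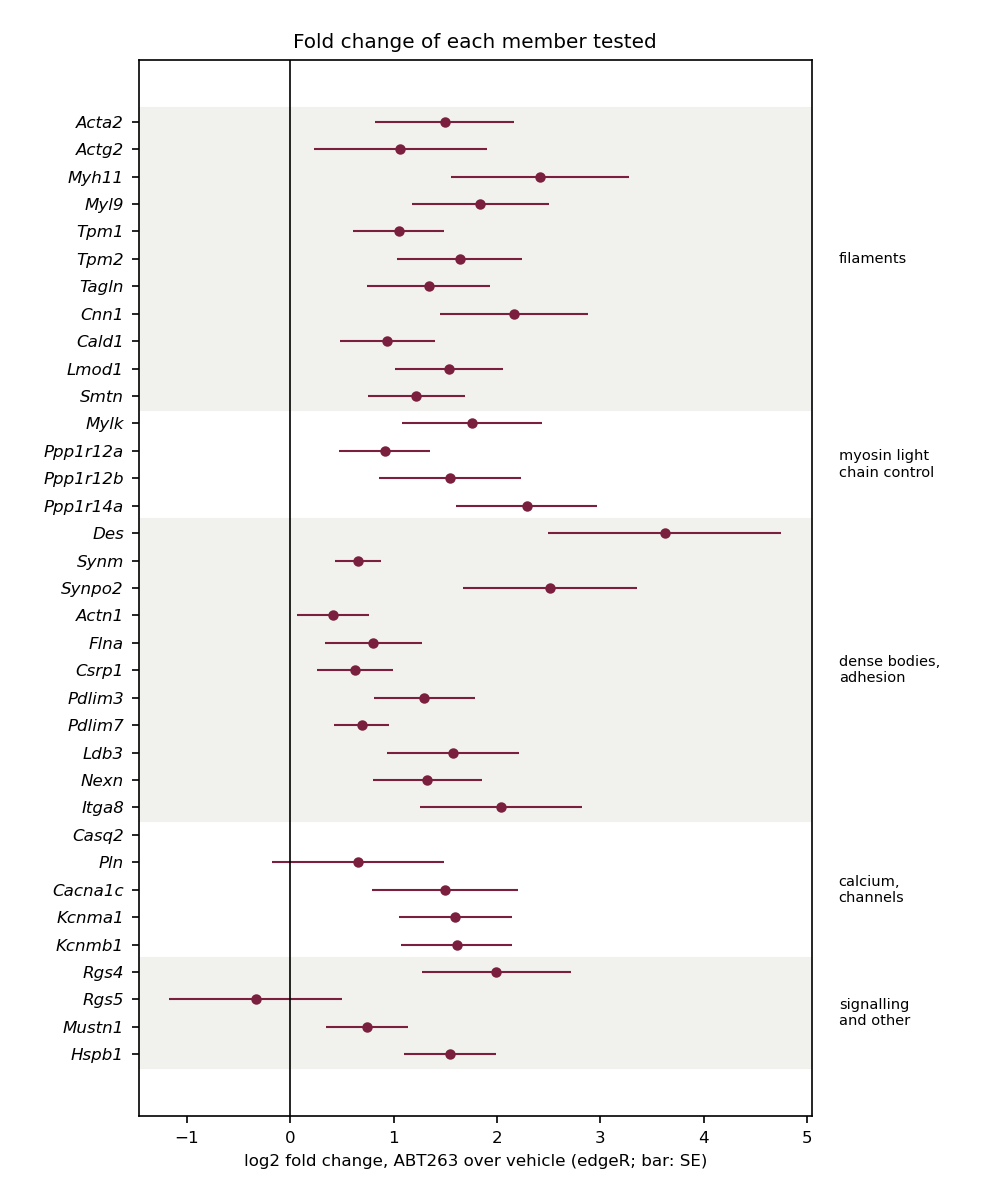
The log2 fold change of each tested gene, ABT263 over vehicle (horizontal axis), as a point with its standard error from edgeR, grouped by role. The points lie to the right of 0 for all but Rgs5 (-0.34), and no gene passed the threshold by edgeR.

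The groups did not overlap for 5 of the 34 genes, all higher with ABT263 (14.7%, against 5.68% of all genes tested in that direction). These were Ppp1r14a, Des, Synm, Pdlim7 and Hspb1. None had a lower ABT263 group without overlap. Leaving out vehicle replicate 1, 2 or 3 gave 5, 6 or 8 such genes of 34, where 8.26%, 13.9% or 10.9% of all genes were then higher without overlap. Leaving out ABT263 replicate 1, 2 or 3 gave 32, 4 or 5 of 34, where 17.0%, 8.31% or 9.34% of all genes were. With replicate 2 of both groups left out it was 6 of 34, where 19.1% of all genes were.

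The filament proteins included Acta2 and Tagln, the genes of highest level per kilobase of exon in the set. Acta2 encodes smooth muscle alpha actin, the main actin of arterial smooth muscle (chromosome 19, 34241090 to 34255590, minus strand, mm10). Its level was 1137, 1168 and 1544 CPM with vehicle and 900.4, 6134 and 3814 CPM with ABT263. ABT263 replicate 1 was the lowest of the 6 and replicates 2 and 3 the highest (log2 fold change 1.49, SE 0.67, adjusted p = 0.601 by edgeR). Actg2, the gamma actin typical of visceral smooth muscle (chromosome 6, 83512905 to 83536265, minus strand), was at 45.7, 10.2 and 42.6 CPM with vehicle and 15.6, 134 and 56.0 CPM with ABT263. Vehicle replicate 2 was its lowest library, and the fold change on the log2 scale, 1.06 (SE 0.84), was 0.13 without ABT263 replicate 2.

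Acta2 and Myl9 are classical targets of serum response factor, which binds the CArG box, and their promoters are shown because both hold such boxes near an annotated start of transcription. A full CArG box was taken as CC, then 6 bases that are A or T, then GG, a form that is the same on both strands, and boxes with at most 1 of the 6 inner bases changed were counted too. In the sequences the boxes are in capitals and all windows run from 250 bases before the start site to 50 bases after it (RefSeq, GRCm38.p6, 5′ to 3′ on the gene's strand). The Acta2 window is chr19:34255324-34255623 (minus strand) and the Myl9 window chr2:156775214-156775513 (plus strand).
Acta2: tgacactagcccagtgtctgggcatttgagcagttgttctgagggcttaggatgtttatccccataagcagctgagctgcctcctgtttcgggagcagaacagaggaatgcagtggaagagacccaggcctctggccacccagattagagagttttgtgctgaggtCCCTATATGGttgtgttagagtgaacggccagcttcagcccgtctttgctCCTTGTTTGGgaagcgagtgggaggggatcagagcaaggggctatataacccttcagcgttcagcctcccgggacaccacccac
Myl9: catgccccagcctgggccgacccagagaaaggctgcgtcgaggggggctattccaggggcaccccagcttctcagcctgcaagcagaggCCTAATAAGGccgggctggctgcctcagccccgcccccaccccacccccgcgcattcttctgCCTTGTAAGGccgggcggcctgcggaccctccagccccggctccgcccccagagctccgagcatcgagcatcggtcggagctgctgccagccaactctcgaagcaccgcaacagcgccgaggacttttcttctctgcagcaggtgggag
The Acta2 window held 2 boxes with 1 changed inner base, CCCTATATGG, which begins 84 bases before the RefSeq start site, and CCTTGTTTGG, which begins 34 bases before it. That site is base 34255373, whereas the gene as placed above starts at 34255590, so these distances hold for the RefSeq site only. The Myl9 window held 1 full box, CCTAATAAGG, at 161 bases before its RefSeq start site, and 1 box with a changed base, CCTTGTAAGG, at 99 bases. Of the 35 genes, 31 had a promoter entry. A full box was found in 2 of the 31 (6.45%), Myl9 and Ldb3, and in 1.81% of all 27025 genes with an entry. With 1 changed base allowed the counts were 6 of 31 (19.4%) and 11.3% of all genes. The other 4 were Acta2, Pdlim3, Synm and Cacna1c. A match describes these letters only, and the lack of one says only that the letters are not in the window.

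Myosin and its light chain were likewise high in ABT263 replicates 2 and 3. Myh11, the smooth muscle myosin heavy chain and a marker of the differentiated cell (chromosome 16, 14194535 to 14291372, minus strand), was at 329.7, 185 and 451 CPM with vehicle. With ABT263 it was at 249.9, 3052 and 1848 CPM, so that replicates 2 and 3 were above all vehicle libraries and replicate 1 lay within the vehicle range (log2 fold change 2.41, SE 0.86). Myl9, the regulatory light chain that the kinase phosphorylates (chromosome 2, 156775420 to 156781658, plus strand), was at 195, 254.4 and 299.6 CPM with vehicle and 224, 1579.6 and 873 CPM with ABT263 (log2 fold change 1.84, SE 0.66). Replicate 1 again lay between the vehicle values.

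Tropomyosins lie along the actin filament and govern the access of myosin to it. Tpm1 was at 289, 246 and 356 CPM with vehicle and 292, 953 and 602 CPM with ABT263 (log2 fold change 1.05, SE 0.44). Tpm2 was at 137, 198 and 178 CPM with vehicle and 153, 905 and 539 CPM with ABT263 (log2 fold change 1.64, SE 0.60). For both genes ABT263 replicate 1 lay inside the vehicle range and the other replicates above it.

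The actin-binding proteins of the filament showed the same split. Tagln (transgelin, an actin cross-linker) was at 790.2, 1244 and 1137 CPM with vehicle and 887, 4486 and 2643 CPM with ABT263 (log2 fold change 1.34, SE 0.60). Cnn1 (calponin, which inhibits the myosin ATPase on actin) was at 82.4, 76.0 and 104 CPM with vehicle and 78.0, 699.7 and 397 CPM with ABT263 (log2 fold change 2.16, SE 0.71). In each of them ABT263 replicate 1 was no higher than the highest vehicle library. Cald1 (caldesmon, which blocks myosin binding to actin) was at 245, 133 and 327 CPM with vehicle and 237, 608 and 506 CPM with ABT263 (log2 fold change 0.94, SE 0.46). Lmod1 (leiomodin 1, which nucleates actin filaments) was at 83.9, 82.2 and 106 CPM with vehicle and 85.7, 377 and 325 CPM with ABT263 (log2 fold change 1.53, SE 0.52). Smtn (smoothelin, found in contractile smooth muscle) was at 146, 202 and 201.02 CPM with vehicle and 172, 606 and 504 CPM with ABT263 (log2 fold change 1.22, SE 0.47). The fold changes of all 11 filament genes were positive (median 1.49 on the log2 scale), where 50.1% of all genes were. Of the 11, 6 had an unadjusted p under 0.05 by edgeR, where 4.70% of all genes passed with a positive fold change, and in none were the groups apart, against 5.68% of all genes higher without overlap. Exons that overlap genes of the opposite strand make up 67.9% of the exon bases of Tagln (with Pcsk7 and Gm48529) and 17.2% of those of Smtn, and since the library kit does not mark strand, reads of the partner genes cannot be told apart there.

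Control of myosin phosphorylation was represented by the kinase, 2 targeting subunits of the phosphatase and the inhibitor of the phosphatase. Mylk encodes myosin light chain kinase (chromosome 16, 34745210 to 35002420, plus strand). Its level was 110.4, 69.5 and 146.5 CPM with vehicle and 85.6, 569 and 448 CPM with ABT263 (log2 fold change 1.76, SE 0.68). Ppp1r12a (MYPT1, the subunit that brings the phosphatase to myosin) was at 74.4, 38.9 and 76.4 CPM with vehicle and 57.0, 158 and 142 CPM with ABT263 (log2 fold change 0.91, SE 0.44). Its relative Ppp1r12b (MYPT2) was at 15.2, 9.63 and 16.6 CPM with vehicle and 8.10, 62.8 and 49.6 CPM with ABT263 (log2 fold change 1.54, SE 0.69). In ABT263 replicate 1 the kinase and Ppp1r12a lay within the vehicle range, and Ppp1r12b lay below it.

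Ppp1r14a (CPI-17, chromosome 7, 29289308 to 29293801, plus strand) inhibits myosin phosphatase once it is phosphorylated by protein kinase C and thereby makes contraction more sensitive to calcium. Its level was 3.92, 6.03 and 5.28 CPM with vehicle and 6.32, 47.0 and 21.0 CPM with ABT263. The groups did not overlap, but replicate 1 exceeded the highest vehicle library by little, 6.32 against 6.03 CPM (log2 fold change 2.28, SE 0.68, adjusted p = 0.592 by edgeR). Within single libraries the ratio of Mylk to Ppp1r12a was 1.48, 1.79 and 1.92 with vehicle and 1.502, 3.60 and 3.16 with ABT263, at an exact two-sided permutation p of 0.3. The ratio lay above every vehicle value in replicates 2 and 3 and within the vehicle range in replicate 1.

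Of the 34 genes tested, the intermediate filament genes Des and Synm had the largest fold change and the smallest SE, respectively. Des encodes desmin, the intermediate filament protein of muscle (chromosome 1, 75360329 to 75368579, plus strand). Its level was 1.02, 3.40 and 3.16 CPM with vehicle and 3.60, 75.1 and 14.96 CPM with ABT263. Replicate 2 was 5.02 times replicate 3, the widest gap between them among the 34 genes tested, and replicate 1 lay just above the vehicle libraries (log2 fold change 3.62, SE 1.13, adjusted p = 0.592 by edgeR). Desmin is abundant in heart and skeletal muscle too, whose markers summed highest in ABT263 replicate 2 (cardiac, 71.0 CPM) and replicate 3 (skeletal, 54.1 CPM), and their part in its level was not tested. Synm (synemin, which joins desmin and vimentin filaments; chromosome 7, 67730160 to 67759742, minus strand) was at 45.0, 41.9 and 56.8 CPM with vehicle and 63.6, 67.4 and 94.9 CPM with ABT263. All 3 ABT263 libraries exceeded all vehicle libraries, and replicate 3 was the highest, unlike in 32 of the 34 genes, where replicate 2 was (24.9% of all genes had their highest level in that library). The log2 fold change of Synm was 0.65 (SE 0.22).

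The 3 PDZ and LIM domain genes differed in how ABT263 replicate 1 compared with vehicle. Pdlim7 (Enigma, an adaptor of the actin cytoskeleton; chromosome 13, 55495795 to 55513676, minus strand) was at 70.5, 109 and 88.7 CPM with vehicle and 110.1, 185 and 139 CPM with ABT263 (log2 fold change 0.69, SE 0.27). Pdlim3 (ALP, its relative at alpha-actinin) was at 35.5, 39.4 and 72.2 CPM with vehicle and 58.0, 194 and 110.0 CPM with ABT263 (log2 fold change 1.30, SE 0.49). Ldb3 (Cypher or ZASP, known from muscle Z-discs) was at 12.5, 10.4 and 18.6 CPM with vehicle and 10.1, 65.7 and 47.7 CPM with ABT263 (log2 fold change 1.57, SE 0.64). ABT263 replicate 1 exceeded the highest vehicle library for Pdlim7, by little, and not for Pdlim3 or Ldb3.

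Ldb3 and Pdlim3 are the dense-body genes whose promoter windows held a CArG box beside that of Synm, and their windows are shown with the boxes in capitals, on the same terms as above. The Ldb3 window is chr14:34588632-34588931 (minus strand), the first of 2 windows of that gene with the same box, and the Pdlim3 window is chr8:45885237-45885536 (plus strand).
Ldb3: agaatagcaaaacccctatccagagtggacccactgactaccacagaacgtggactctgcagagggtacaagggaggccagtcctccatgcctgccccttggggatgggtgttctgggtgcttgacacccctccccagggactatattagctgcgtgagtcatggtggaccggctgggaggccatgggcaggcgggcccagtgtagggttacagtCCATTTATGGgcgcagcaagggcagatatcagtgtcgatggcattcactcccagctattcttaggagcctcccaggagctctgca
Pdlim3: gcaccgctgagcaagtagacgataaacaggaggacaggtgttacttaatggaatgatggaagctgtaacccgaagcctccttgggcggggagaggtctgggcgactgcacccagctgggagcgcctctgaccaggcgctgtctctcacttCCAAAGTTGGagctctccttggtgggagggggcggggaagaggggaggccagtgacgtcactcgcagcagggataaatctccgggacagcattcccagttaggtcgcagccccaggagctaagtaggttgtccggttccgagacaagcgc
The Ldb3 box, CCATTTATGG, is full and begins 35 bases before the start site. That of Pdlim3, CCAAAGTTGG, has 1 changed inner base and begins 100 bases before it. In Synm the box was CCTCATAAGG, with 1 changed base, 239 bases before the start site.

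Synpo2, Itga8 and Nexn, which tie actin to its anchors or the cell to its matrix, were high in ABT263 replicates 2 and 3. Synpo2 (synaptopodin 2, an actin-binding protein of Z-discs and dense bodies; chromosome 3, 123076519 to 123236149, minus strand) was at 36.8, 15.6 and 46.2 CPM with vehicle and 30.8, 334 and 197 CPM with ABT263 (log2 fold change 2.51, SE 0.84). Itga8 (integrin alpha 8, a matrix receptor of smooth muscle; chromosome 2, 12106632 to 12301922, minus strand) was at 209, 96.4 and 220.5 CPM with vehicle and 121, 1068 and 969 CPM with ABT263 (log2 fold change 2.04, SE 0.79). Nexn (nexilin, an actin-binding protein) was at 19.9, 14.7 and 29.1 CPM with vehicle and 18.7, 73.3 and 67.7 CPM with ABT263 (log2 fold change 1.33, SE 0.53). In these 3 genes ABT263 replicates 2 and 3 were close to each other only for Itga8 and Nexn, at ratios of 1.10 and 1.08.

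Actn1, Flna and Csrp1 had fold changes under 1 on the log2 scale, as had Synm (0.65) and Pdlim7 (0.69) above. Actn1 (alpha-actinin 1) was at 562, 317 and 631 CPM with vehicle and 486, 772 and 757 CPM with ABT263 (log2 fold change 0.42, SE 0.35). Flna (filamin A) was at 2133, 1448 and 2225 CPM with vehicle and 1687, 4707 and 3724 CPM with ABT263 (log2 fold change 0.80, SE 0.47). Csrp1 (a LIM domain protein that binds alpha-actinin) was at 564, 488 and 526 CPM with vehicle and 468, 1184 and 779.6 CPM with ABT263 (log2 fold change 0.62, SE 0.37). In Actn1, Flna and Csrp1 ABT263 replicate 1 lay within or below the vehicle range. Over the 11 genes of dense bodies and adhesion all fold changes were positive (50.1% of all genes), with a median of 1.30, and 8 had an unadjusted p under 0.05 by edgeR, where 4.70% of all genes passed with a positive fold change.

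The genes of calcium handling and ion channels were low in abundance, all under 130 CPM in every library. Cacna1c, the pore of the L-type calcium channel (chromosome 6, 118587240 to 119196418, minus strand), was at 8.94, 4.25 and 12.1 CPM with vehicle and 5.48, 33.8 and 31.9 CPM with ABT263 (log2 fold change 1.49, SE 0.71). Kcnma1, the pore of the calcium-activated BK potassium channel, was at 5.70, 6.72 and 4.72 CPM with vehicle and 5.50, 25.7 and 20.7 CPM with ABT263 (log2 fold change 1.60, SE 0.55). Kcnmb1, the beta 1 subunit that raises the calcium sensitivity of BK channels in smooth muscle (chromosome 11, 33963013 to 33973641, plus strand), was at 25.8, 20.6 and 35.05 CPM with vehicle and 28.0, 129 and 91.3 CPM with ABT263 (log2 fold change 1.61, SE 0.54). The ratio of the beta subunit to the pore lay within the vehicle range in all ABT263 libraries, at 5.09, 5.02 and 4.40 against 4.53, 3.06 and 7.42 with vehicle (exact two-sided permutation p = 1.0). Promoter windows of Cacna1c held 2 boxes with 1 changed base, CCAAGAAAGG at 30 bases and CCTTCATTGG at 84 bases before their start sites.

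Pln and Casq2 act at the sarcoplasmic reticulum. Pln differed from the channels in its pattern, and Casq2 was too low to be tested. Pln (phospholamban, which inhibits the calcium pump SERCA) was at 2.29, 2.89 and 4.68 CPM with vehicle and 0.775, 10.3 and 4.49 CPM with ABT263. ABT263 replicate 1 was the lowest library, replicate 3 lay within the vehicle range and only replicate 2 exceeded it. The log2 fold change was 0.65 (SE 0.83), and it was -0.32 without ABT263 replicate 2. Exons of Pln share 64.7% of their bases with Cep85l and Gm47644 of the opposite strand, so its counts are uncertain. Casq2 (the calsequestrin of cardiac muscle, which stores calcium) had 0, 0 and 2 counts with vehicle and 2, 30 and 6 counts with ABT263. Both genes are abundant in heart, and ABT263 replicate 2 also held some cardiac markers. Myl7 (atrial myosin light chain) was at 17.1 CPM there against at most 0.124 elsewhere. Actc1 (cardiac actin) was at 3.96 against at most 0.491, and Tnnt2 (cardiac troponin T) at 41.4 against at most 10.2. Other cardiac markers were not high there, such as Tnni3 (1.41 CPM, against 8.03 in vehicle replicate 2) and Mybpc3 (0.296 against 2.49). Of the 9 cardiac markers tested, 4 had their highest level in ABT263 replicate 2, where 24.9% of all genes did. The part of cardiac transcripts in the levels of Pln and Casq2 was not tested.

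Signalling genes held the 1 member with a negative fold change. Rgs5, a GTPase activator that dampens G protein signals and marks pericytes as well as arterial smooth muscle (chromosome 1, 169655501 to 169695813, plus strand), was at 33.0, 35.1 and 114 CPM with vehicle and 8.13, 59.8 and 76.1 CPM with ABT263. Vehicle replicate 3 was the highest library and ABT263 replicate 1 the lowest (log2 fold change -0.34, SE 0.84). The sign turned without vehicle replicate 3 (0.49) and without ABT263 replicate 1 (0.16). Rgs4, a relative of the same function (chromosome 1, 169741477 to 169747642, minus strand), lies near it on chromosome 1 and was at 12.2, 7.50 and 17.6 CPM with vehicle and 10.3, 79.5 and 58.5 CPM with ABT263 (log2 fold change 1.99, SE 0.72). The neighbours therefore differed in ABT263 replicates 2 and 3, where Rgs4 exceeded all vehicle libraries and Rgs5 did not.

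Hspb1 (the small heat shock protein HSP27, which binds actin; chromosome 5, 135887919 to 135889563, plus strand) had the smallest unadjusted p of the set, 0.0112 by edgeR. Its level was 69.3, 65.2 and 90.5 CPM with vehicle and 101, 347 and 209 CPM with ABT263. All ABT263 libraries exceeded all vehicle libraries (log2 fold change 1.55, SE 0.44, adjusted p = 0.592 by edgeR). Mustn1 (a small nuclear protein of muscle and skeleton) was at 51.0, 105 and 55.8 CPM with vehicle and 70.3, 156 and 128 CPM with ABT263 (log2 fold change 0.75, SE 0.40). Vehicle replicate 2 was the highest vehicle library for Mustn1. It was the highest for 8 of the 34 genes in all and the lowest for 21.

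The vehicle libraries themselves spread widely. The highest vehicle level was a median of 1.76 times the lowest over the 34 genes, from 1.15 times for Csrp1 to 4.49 times for Actg2. Vehicle replicate 3 was the highest of the 3 for 24 genes. Levels compared between genes per kilobase of exon put Acta2 first, at 584 ± 103 CPM per kilobase (SD, n = 3, vehicle), and Tagln next, at 532 ± 119, which differ by less than their spread. Csrp1 (269 ± 19.3), Myl9 (215 ± 45.3) and Flna (206 ± 45.2) followed, and of these Myl9 and Flna did not differ beyond their spread. Myh11 ranked 11 of 35 at 42.4 ± 17.5 CPM per kilobase. The lowest were Des (0.673 ± 0.348), Cacna1c (0.398 ± 0.186), Kcnma1 (0.337 ± 0.0587) and Casq2, which was near 0. With ABT263 the level of Acta2 per kilobase was 1647 ± 1194 and that of Myh11 226 ± 185 (SD, n = 3), and replicate 1 did not share the high levels of replicates 2 and 3.

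Genes of the set were compared with related genes outside it, as ratios of gene-level CPM within each library. The ratio of Myh11 to Myh9, a non-muscle myosin heavy chain, was 0.320, 0.345 and 0.380 with vehicle and 0.332, 4.65 and 1.83 with ABT263. For Myl9 over the non-muscle light chain Myl12a it was 0.451, 0.396 and 0.598 with vehicle and 0.432, 3.82 and 2.25 with ABT263. Replicates 2 and 3 thus lay far above the vehicle libraries and replicate 1 among them. Tpm1 over Tpm3 gave 0.645, 0.430 and 0.837 with vehicle and 0.606, 3.52 and 1.68 with ABT263. Tpm2 over Tpm4 gave 0.251, 0.359 and 0.308 with vehicle and 0.244, 2.11 and 0.893 with ABT263. In exact two-sided permutation tests p was 0.3 for the first 3 of these and 0.4 for Tpm2 over Tpm4. The actin genes are close relatives, as are Myl12a and Myl12b, so reads shared between such copies make their counts uncertain.

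Myh10, the other widespread non-muscle heavy chain, ranked the 6 libraries in the same order as Myh11. Its level was 157, 89.2 and 196 CPM with vehicle and 106, 552 and 411 CPM with ABT263 (log2 fold change 1.28, SE 0.61). The ratio of Myh11 to Myh10 was 2.11, 2.08 and 2.31 with vehicle and 2.35, 5.53 and 4.50 with ABT263, without overlap (exact permutation p = 0.1, the smallest that 3 against 3 allows). The ratio of Des to Acta2 did not overlap either (p = 0.1, exact permutation), and the ratio of Actg2 to Acta2 did (exact permutation p = 0.8). Over the 10 ratios computed the adjusted p ran from 0.5 to 1.0, so none passed the threshold, which this design cannot reach.

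**Figure D3:**
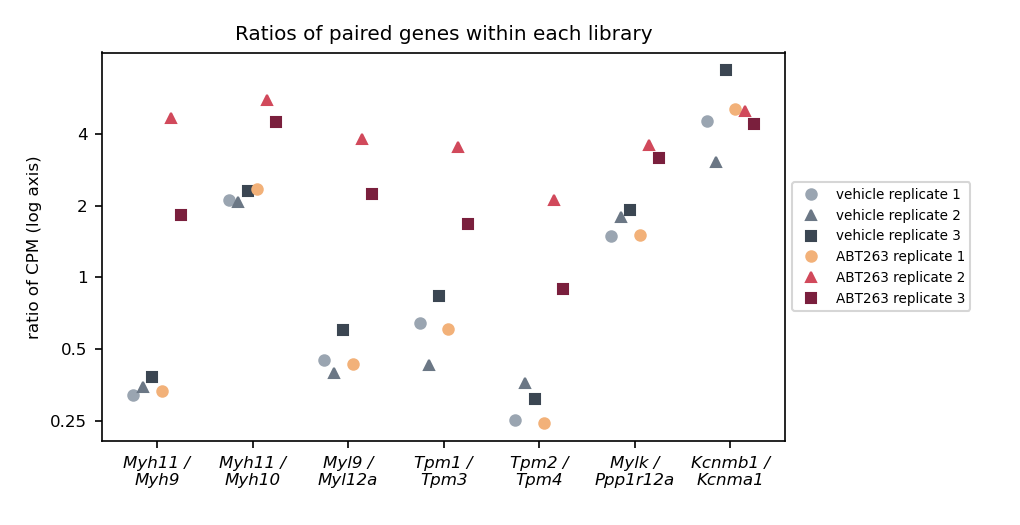
Ratio of CPM for 7 gene pairs (horizontal axis) within each library on a log axis, with 1 point per library. For the 4 ratios of genes of the set to Myh9, Myl12a, Tpm3 and Tpm4, ABT263 replicates 2 and 3 lie above all vehicle points. Replicate 1 lies at the vehicle points, as for Myh11 over Myh9 (4.65 and 1.83 against 0.332).

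Of 76 other genes of contraction, adhesion and calcium handling, 74 were tested and 57 lay above 0 in fold change (50.1% of all genes did), at a median of 0.66 on the log2 scale, below the 1.49 of the 34 genes. None passed the threshold by edgeR, and 18 had an unadjusted p under 0.05 with a positive fold change (4.70% of all genes) and 0 with a negative one. DESeq2 called 1 of the 74, near the 1.01% of all genes, and this was Hspb6 (adjusted p = 0.0483). Hspb6 (HSP20, a small heat shock protein linked to smooth muscle relaxation) was at 9.50, 13.8 and 14.1 CPM with vehicle and 15.02, 97.3 and 55.2 CPM with ABT263 (log2 fold change 2.16). The other genes of smallest p on the higher side were Cacnb2 (a calcium channel beta subunit, 1.70), Kcnj8 and Abcc9 (the pore and the sulfonylurea receptor of a vascular ATP-sensitive potassium channel, 1.20 and 2.06), Hspb8 (1.12) and Cap2 (an actin regulator, 1.83).

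On the lower side none reached an unadjusted p under 0.05. Adra1a (an alpha 1 adrenergic receptor) had a log2 fold change of -1.18, Arhgef1 (an activator of RhoA) -0.29, Dapk3 (a kinase of the myosin light chain) -0.28, Tpm3 -0.38, Myl12b -0.32 and Myl12a -0.25. The calcium pump Atp2a2 (SERCA2) was at 298, 127 and 255 CPM with vehicle and 214, 425 and 435 CPM with ABT263 (log2 fold change 0.66, SE 0.42). Near-level values were found for Rhoa (log2 fold change -0.03) and Myh9 (-0.19), whereas Itpr1 (an inositol trisphosphate receptor), Vcl (vinculin), Myl6 (the essential myosin light chain), Prkg1 (cGMP-dependent protein kinase) and Rock1 (the RhoA-dependent kinase) had 0.44, 0.34, 0.47, 0.81 and 0.92.

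Transcription factors of the smooth muscle lineage varied less uniformly. Myocd (myocardin, the coactivator of serum response factor) was at 14.4, 4.54 and 24.3 CPM with vehicle and 7.45, 87.8 and 52.0 CPM with ABT263 (log2 fold change 1.77, SE 0.93), which ranked the 6 libraries as Myh11 did. Srf, the factor that binds the CArG box, was at 66.9, 66.9 and 72.3 CPM with vehicle and 66.6, 94.0 and 81.0 CPM with ABT263 (log2 fold change 0.23). Mkl1 and Mkl2, coactivators related to myocardin, had log2 fold changes of -0.50 and -0.29, and Foxf1 had 1.44. Mkl1 was at 111, 74.8 and 96.0 CPM with vehicle and 74.5, 52.2 and 72.6 CPM with ABT263, lower without overlap by a narrow gap. Klf4, which represses contractile genes in smooth muscle, was at 36.5, 43.8 and 59.3 CPM with vehicle and 81.2, 81.5 and 59.8 CPM with ABT263, without overlap but by a narrow gap (log2 fold change 0.67). Unlike most of the contractile genes, Klf4 was high in ABT263 replicate 1. Of the 10 genes of the lineage list, 1 was higher and 1 lower without overlap, where 12.0% of all genes did not overlap in either direction.

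Markers of other cell types moved in the same libraries, and their part in the levels above was not tested. The summed level of macrophage markers was lower in every ABT263 library than in every vehicle library, at 12357, 15184 and 7779 CPM with vehicle and 7502, 3645 and 6951 CPM with ABT263. All 10 macrophage markers had a negative fold change, where 50.1% of all genes had a positive one. For 7 of them the groups did not overlap, while for Cd68, Lgals3 and Mrc1 they did. Of all genes tested, 12.0% had groups that did not overlap in either direction, and 5.68% were higher without overlap. The macrophage sum of ABT263 replicate 1 lay just under that of vehicle replicate 3. Lgals3, the largest part of both sums, was higher in ABT263 replicate 1 (3376 CPM) than in vehicle replicate 3 (2233 CPM). Cd68 was slightly higher there too (771 against 758 CPM), and the 7 markers without overlap were lower. The summed contractile level of ABT263 replicate 1 was the lowest of the 6 libraries. Endothelial markers summed to 3641, 617 and 5190 CPM with vehicle and 5443, 2694 and 1837 CPM with ABT263, lowest in vehicle replicate 2, the vehicle library in which most contractile genes were lowest too. T cell markers summed to 122 to 181 CPM with vehicle and 33.4 to 109 CPM with ABT263, with 7 of 7 negative. B cell markers summed to 20.6 to 75.1 CPM and 4.45 to 13.4 CPM, with 5 of 5 negative. For both lists the share of all genes with a positive fold change was again 50.1%.

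ABT263 replicate 2, the library of highest contractile level, also stood apart in the summed levels of markers of fat, mesothelium and heart. Its adipocyte markers summed to 5086 CPM, against 86.1 to 297 CPM in the other 5 libraries, and Adipoq (adiponectin) stood at 356 CPM against at most 0.510. Mesothelial markers summed to 525 CPM there and to at most 2.40 CPM elsewhere, and cardiac markers to 71.0 CPM against 7.47 to 20.8 CPM. Most of this cardiac sum was Tnnt2 (41.4 CPM) and Myl7 (17.1 CPM). In ABT263 replicate 3, fat and mesothelial markers summed to 129.6 and 1.70 CPM, within the range of the vehicle libraries. Skeletal muscle markers were highest in that library, at 54.1 CPM against 8.10 to 12.2 CPM in the other 5, with Acta1 (skeletal actin) at 12.5 CPM and Myh4 (a fast skeletal myosin) at 10.3 CPM. Of the listed markers among the symbols used, none had 0 counts in all 6 libraries.

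Of the cells that share genes with smooth muscle, adventitial fibroblast markers summed to 2155 to 3073 CPM with vehicle and 3421, 6595 and 4251 CPM with ABT263. Most of this sum was Gsn (gelsolin), at 3915 CPM in ABT263 replicate 2, and Lum (lumican), at 2756 CPM in ABT263 replicate 3. Only 1 of the 10 markers, Gsn, was itself higher without overlap, where 5.68% of all genes were. Lum was lowest in ABT263 replicate 2. Pericyte markers summed to 343 to 509 CPM with vehicle and 322, 579 and 916 CPM with ABT263, where replicate 3 was the highest and replicate 1 the lowest library. Markers of modulated smooth muscle summed to 14743 to 18273 CPM with vehicle and 16938, 7611 and 37084 CPM with ABT263. Most of this sum was Spp1 (osteopontin) and Fn1 (fibronectin), and single markers went other ways, with Tcf21 highest in ABT263 replicate 2 and Ibsp lowest in ABT263 replicate 3. Cartilage markers summed to 1441 to 2442 CPM with vehicle and 687 to 1223 CPM with ABT263, and Schwann cell markers to 52.0 to 72.7 CPM and 46.9 to 65.3 CPM.

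**Figure D4:**
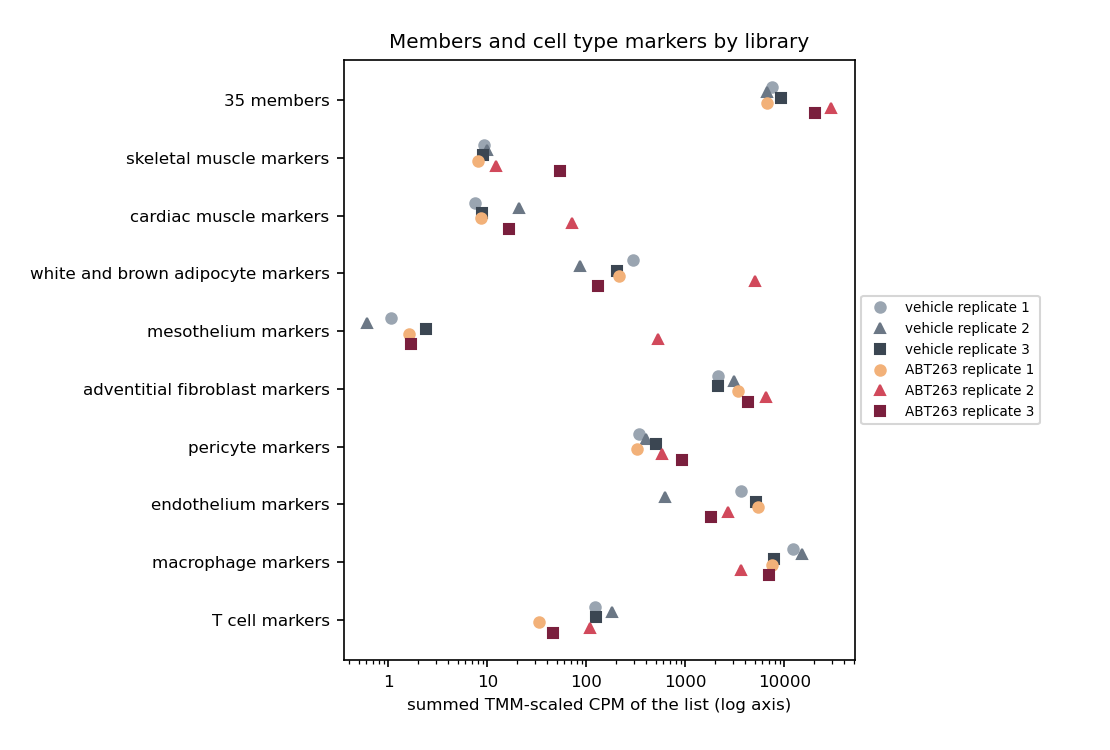
Summed TMM-scaled CPM (horizontal log axis) of the 35 genes and of 9 lists of cell type markers, 1 point per library. ABT263 replicate 2 stands far to the right for adipocyte (5086 CPM) and mesothelial (525 CPM) markers and to the left for macrophage markers (3645 CPM), and ABT263 replicate 3 stands to the right for skeletal muscle markers (54.1 CPM).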

How the data were processed

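The authors deposited raw counts of reads per gene in 1 table for 3 vehicle and 3 ABT263 libraries of aortic arch plaque. Per the labels' protocols, RNA was extracted on RNeasy Micro columns and libraries were made from 100 to 200 ng of RNA with the TruSeq RNA kit v2, which does not mark strand. Per the submitters' processing notes, the build was mm10 and the tools included Bowtie2 2.2.6, TopHat2 2.0.14, Subread and featureCounts 1.4.6. Not given in the sources used here are the annotation, the strand setting and the treatment of reads that map to several places. How shared reads bear on the levels of paralogs in each library was not tested.

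Groups came from the sample titles, and replicates were numbered in accession order, which only names them. In R 4.3.3, genes were filtered with filterByExpr of edgeR 4.0.16 (minimum count 10, minimum total 15), which left 15222 of 24062 symbols. Libraries were scaled by TMM and tested by the quasi-likelihood F-test on the group alone, with Benjamini-Hochberg adjustment over all genes and a threshold of 0.05. The SE was taken as the size of the log2 fold change over the square root of F. The procedure was run on simulated data, where passing was required only at a small assumed dispersion and not at that of these libraries. DESeq2 1.42.0, limma-voom (limma 3.58.1), other scalings, other filters and the removal of libraries were alternatives. Levels are TMM-scaled CPM. Positions and exon lengths came from GENCODE M21 (GRCm38, which mm10 denotes), and CPM per kilobase uses the union of a gene's exons.

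All 35 genes are named, with values in each library where the mean was at least 1 CPM. Of the other contraction genes, the rule names the 6 of smallest p per direction and 8 listed outright. The smooth muscle lineage factors came from a marker list. The genes and lists were chosen with earlier results of these data known, so their counts are descriptions. The 10 ratios were chosen after values had been seen and were compared by exact permutation tests on log2 ratios, whose smallest p with 3 against 3 is 0.1. The allele that both groups carried is not reported here.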

Additional observations from a re-analysis of the deposited data

How the results depend on the processing

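No gene passed the edgeR threshold under any scaling, filter or removal of a library, and limma-voom called 0 genes. DESeq2 called 153 genes, 2 of them in the set, Des (log2 fold change 3.60) and Ppp1r14a (2.26). The count of the 34 genes at an unadjusted p under 0.05, 20 by edgeR, was 25 by DESeq2, 9 by limma-voom, 3 without vehicle replicate 2 and ABT263 replicate 2 together, and between 3 and 30 when 1 library was left out. Of all genes tested, 8.38% passed by edgeR, 11.3% by DESeq2 and 5.62% by limma-voom. The share was 7.11% without the 2 libraries together and 4.23% to 12.0% when 1 library was left out. Genes with groups apart numbered 4 to 32 over those removals, where 8.26% to 19.1% of all genes were higher without overlap. With all libraries kept there were 5, where 5.68% of all genes were higher without overlap. There were 4 with the scaling of DESeq2, with RLE size factors or with a filter of at least 1 CPM in 3 libraries. The share of all genes under those settings is not given here. The median log2 fold change ran from 1.03 to 1.92 over the removals of 1 library and was 0.88 without the 2 libraries together. Directions turned for Pln (-0.078 by limma-voom, -0.32 without ABT263 replicate 2, -0.41 without both), Rgs5 (0.49 without vehicle replicate 3, 0.16 without ABT263 replicate 1) and Actg2 (-0.30 without both). Over the removals of 1 library the log2 fold change ran from -0.32 to 1.16 for Pln, -0.84 to 0.49 for Rgs5 and 0.13 to 1.53 for Actg2. The cause was not tested. With Casq2 tested in the absence of a filter, 34 of 35 genes were positive. Other scalings moved the median of all genes by at most 0.091 on the log2 scale. No paired analysis was possible because the labels give the groups no shared replicate numbers. Depth limited Casq2, with at most 30 counts in a library, and 3 libraries per group with unlike ABT263 replicates limit every test.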
